A study of Homo sapiens with 16 samples.

Results

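TCam-2 is an established human cell line from a seminoma (SEM), the germ cell tumour that most resembles primordial germ cells. The data described here are its response to MIR9-2-5p, taken as all genes of the 8 TCam-2 libraries out of the 16 libraries of the series. The cells received a MIR9-2-5p mimic, a synthetic RNA that acts as the mature miRNA, or a scrambled control, each at 25 nM. RNA was sequenced 3 days later from 4 biological replicates of each. The other 8 libraries hold the same pair of groups in NT2/D1, an embryonal carcinoma (EC) line, and are used only where the response of TCam-2 is set against them. Both TCam-2 groups received the transfection reagent. They come from 1 cell line, so that the spread between libraries is that of replicate cultures and not of tumours. Of 58735 genes counted, 35993 had a read in a TCam-2 library and 16847 passed the filter on low counts and were tested.

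A miRNA guides an Argonaute protein to messenger RNAs that pair with its seed, the bases near its 5′ end, which lowers their stability and translation. MIR9-2-5p is one of the most abundant miRNAs of the developing brain, where it acts in neural progenitor cells, and its host gene is one of 3 that give the same mature miRNA. Seminoma cells carry the transcription factors of primordial germ cells and the receptor KIT, but not SOX2, which marks EC. SOX17 lay between 193 and 321 CPM (a gene's counts scaled to the size of its library) in the 8 TCam-2 libraries, and no NT2/D1 library was above 0.106 CPM. TFAP2C (667 to 968 CPM), PRDM1 (55.7 to 100.5 CPM by the scaling over all 16 libraries) and PDPN (267 to 462 CPM) were above every NT2/D1 library, whereas SOX2 was at most 1.81 CPM in TCam-2 and at least 155 CPM in NT2/D1. NANOS3 was low, at 0.602 to 10.4 CPM.

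The mature miRNA is given below as RefSeq lists it for GRCh38.p14, with the seed (bases 2 to 8) in capitals. It is encoded by MIR9-2 at chr5:88666902-88666924 on the minus strand, and its perfect match in a messenger RNA reads ACCAAAGA for the 8 bases that pair with the seed and carry an A opposite base 1.
hsa-miR-9-5p: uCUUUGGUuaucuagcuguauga
Matches of this kind were looked for on the sense strand of the longest annotated 3′ UTR. They are shown for named genes of the stress and transport lists that fell and hold an 8-base match, and beside them for named genes that rose, a set picked once their values were known. The match is in capitals, and 30 bases are given in the sense of the messenger RNA (GRCh38).
NFE2L2, chr2:177220907-177220936, minus strand: aacgttcaactACCAAAGAgagtaacagca
ATP8B2, chr1:154351046-154351075, plus strand: ctgatttttatACCAAAGAggaaatgattt
SYNE1, chr6:152461653-152461682, minus strand: cacacctcattACCAAAGAaagcccccaag
ST8SIA4, chr5:100810704-100810733, minus strand: aaatctttggtACCAAAGAttacacttgtg
ASNS, chr7:97852393-97852422, minus strand: atactcctaaaACCAAAGAaggatattact
ATP11A, chr13:112883637-112883666, plus strand: acaaacatcacACCAAAGAtgagggtagcg
Log2 fold changes were -0.34 for NFE2L2 and -0.40 for ATP8B2, and 3.37 for SYNE1, 2.61 for ST8SIA4, 2.32 for ASNS and 0.93 for ATP11A.

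Of the 16847 genes, MIR9-2-5p left 5673 higher (33.7%) and 5504 lower (32.7%) at an adjusted p under 0.05 by edgeR's quasi-likelihood test. Past a fold of 1.5, tested with edgeR's glmTreat, 2182 (13.0%) were higher and 1996 (11.8%) were lower, and the median log2 fold change was 0.02. The groups did not overlap for 9948 genes (59.0%). These shares are the background for every count below. Summed over all tested genes, levels were 946650 to 960050 CPM with MIR9-2-5p and 1025400 to 1077400 CPM with the scrambled control. This is the background for the sums below, which use the same scaling or, for markers, that of all 16 libraries. In a bulk library, fewer cells of a type and less RNA per cell cannot be told apart. In TCam-2, genes that hold an 8-base match were not lower as a class. The median log2 fold change was 0.13 over 860 protein-coding genes with an 8-base match, 0.098 over 3112 with a match of 7 bases, 0.05 over 3168 with 6 bases, and -0.17 over 6435 with none. For those of these genes also tested in NT2/D1, the medians there were -0.060 over 832 with an 8-base match and 0.016 over 6026 with none. The medians that follow are again those of TCam-2. Matches are more frequent in longer 3′ UTRs, and the response moved with the length of the 3′ UTR, from a median of -0.31 over the 3394 genes with the shortest ones (up to 853 bases) to 0.23 over the 3393 with the longest (from 3323 bases). Within the class with the shortest 3′ UTRs the median was -0.068 over 47 genes with an 8-base match and -0.31 over 2840 with none. Within the class with the longest it was 0.24 over 466 genes with an 8-base match and 0.18 over 408 with none. Of 28 tested genes described as targets of this miRNA in other cultured cells, 14 rose and 6 fell (median log2 fold change 0.35). The part that 3′ UTR length has in these medians was not tested beyond this split.

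Depth was alike between groups, with 14167738 to 19367272 counts in the MIR9-2-5p libraries and 15801394 to 21488866 in the scrambled libraries. Other library properties moved with the group: mitochondrial genes took 1.85% to 2.18% of counts with MIR9-2-5p and 3.63% to 4.01% with the scrambled control, and the 10 most counted genes took 4.30% to 4.43% and 6.13% to 6.41%. The part of these in the results was not tested. Replicate 3 of MIR9-2-5p stood furthest from its group, with a chi-square per degree of freedom of 8.29 to 19.2 against the other replicates, where these had 3.39 to 6.59 among themselves. Replicate 1 of the scrambled control had 5.60 to 12.04, against 1.98 to 3.99 among the other replicates. Without the first of these libraries 5782 genes were higher and 5650 lower, and without the second 5724 were higher and 5630 lower. Of the 136 genes named by rule, 30 overlap another annotated gene on the opposite strand and 12 on the same strand, and as no source used here gives the strand setting of the counting, reads of such pairs may not be told apart. The overlap is marked below for some of these genes only. Among those left unmarked are NRROS (with PIGX), HOXB9 (HOXB7) and MCOLN1 (PNPLA6) on the same strand, and GLMP (TMEM79) on the opposite strand.

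**Figure D1:**
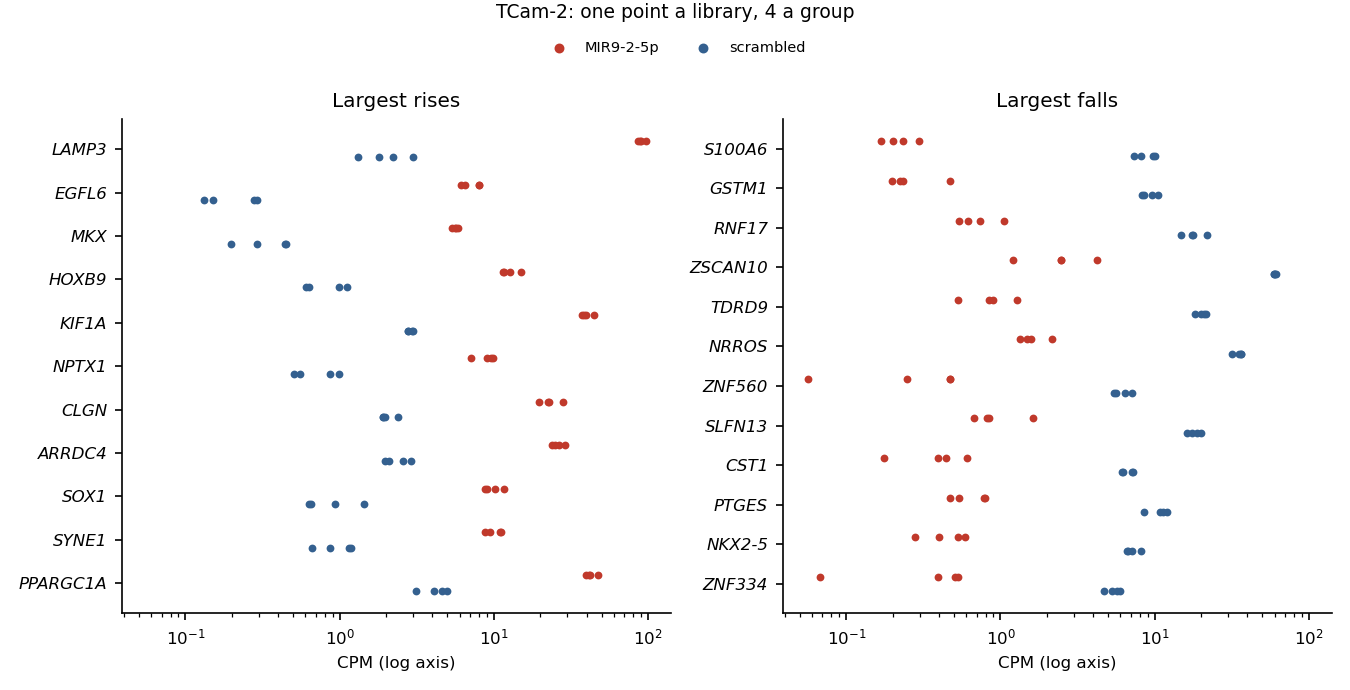
CPM on a log axis for 11 of the 12 protein-coding genes with the largest rises (left) and the 12 with the largest falls (right) in TCam-2, 1 point for each of 4 MIR9-2-5p libraries (red) and 4 scrambled libraries (blue). No pair of groups overlaps for any of these genes, which the rule for naming them required, and LAMP3 and ZSCAN10 reach the highest levels on their sides, with 97.4 CPM and 61.3 CPM in their highest libraries.

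Among protein-coding genes with a mean of at least 50 counts and groups that do not overlap, the largest rise was that of LAMP3, a lysosome membrane protein best known from mature dendritic cells, which lies on chromosome 3. It had 86.2, 89.8, 97.4 and 88.6 CPM in the MIR9-2-5p libraries, against 3.01, 1.81, 2.22 and 1.32 CPM in the scrambled libraries. Every MIR9-2-5p library was far above every scrambled library (log2 fold change 5.42, SE 0.14, edgeR adjusted p = 1.14e-14). EGFL6, a secreted protein with EGF-like repeats, had 6.46, 8.02, 6.16 and 8.02 CPM in the MIR9-2-5p libraries, against 0.289, 0.151, 0.278 and 0.132 CPM in the scrambled libraries. Its levels were low in the scrambled libraries, so that the size of the change (5.03, SE 0.26, edgeR adjusted p = 2.18e-11) rests on few reads there. KIF1A, a kinesin that carries synaptic vesicle precursors along axons, was at 40.2 ± 3.34 CPM in MIR9-2-5p libraries, against 2.88 ± 0.118 CPM in scrambled libraries (SD, n = 4 each). SOX1, a transcription factor of neural progenitors, was at 9.91 ± 1.29 CPM in MIR9-2-5p libraries, against 0.915 ± 0.377 CPM in scrambled libraries (SD, n = 4 each). PPARGC1A, the coactivator of mitochondrial gene expression known as PGC-1α, had 41.5, 39.6, 47.2 and 41.97 CPM in the MIR9-2-5p libraries, against 4.98, 3.11, 4.61 and 4.10 CPM in the scrambled libraries. Its scrambled libraries all lay under 5 CPM and its MIR9-2-5p libraries all lay above 39 CPM. CLGN, an endoplasmic reticulum (ER) chaperone of male germ cells, and NPTX1, a secreted neuronal pentraxin, rose with log2 fold changes of 3.50 and 3.63. Further large rises were those of the homeobox genes MKX (3.96) and HOXB9 (3.93), the arrestin-related ARRDC4 (3.46) and SYNE1 (3.37), which links the nucleus to the cytoskeleton.

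Among the falls of genes that meet the same limits, that of S100A6, a small calcium-binding protein, was the largest. It had 0.296, 0.234, 0.201 and 0.168 CPM in the MIR9-2-5p libraries, against 7.35, 9.79, 10.1 and 8.14 CPM in the scrambled libraries. The MIR9-2-5p libraries hold 16 reads of it in all, against 627 in the scrambled libraries (log2 fold change -5.24, SE 0.24, edgeR adjusted p = 5.43e-12). ZSCAN10, a zinc finger factor of pluripotent cells, had 2.47, 4.21, 1.21 and 2.47 CPM in the MIR9-2-5p libraries, against 59.2, 61.3, 59.4 and 60.7 CPM in the scrambled libraries. The scrambled libraries were tightly grouped and the MIR9-2-5p libraries spread more widely, far below them (log2 fold change -4.52, SE 0.18, edgeR adjusted p = 6.14e-12). NRROS, which holds latent transforming growth factor beta in myeloid cells, had 1.48, 2.17, 1.34 and 1.57 CPM in the MIR9-2-5p libraries, against 36.4, 35.1, 36.5 and 31.8 CPM in the scrambled libraries. All 4 MIR9-2-5p libraries were under 2.2 CPM (log2 fold change -4.41, SE 0.13, edgeR adjusted p = 4.82e-14). PTGES, which makes prostaglandin E2, was at 0.645 ± 0.167 CPM in MIR9-2-5p libraries, against 10.6 ± 1.52 CPM in scrambled libraries (SD, n = 4 each). GSTM1, a glutathione transferase that overlaps the similar GSTM2 on the same strand, so that reads of the pair may not be told apart, fell by 5.05 on the log2 scale. The falls also took in SLFN13 (-4.14), an RNA-cleaving schlafen, the zinc finger genes ZNF560 (-4.32) and ZNF334 (-3.80), the secreted protease inhibitor CST1 (-4.04), the cardiac homeobox gene NKX2-5 (-3.95), and RNF17 and TDRD9, described with the germ cell genes.

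**Figure D2:**
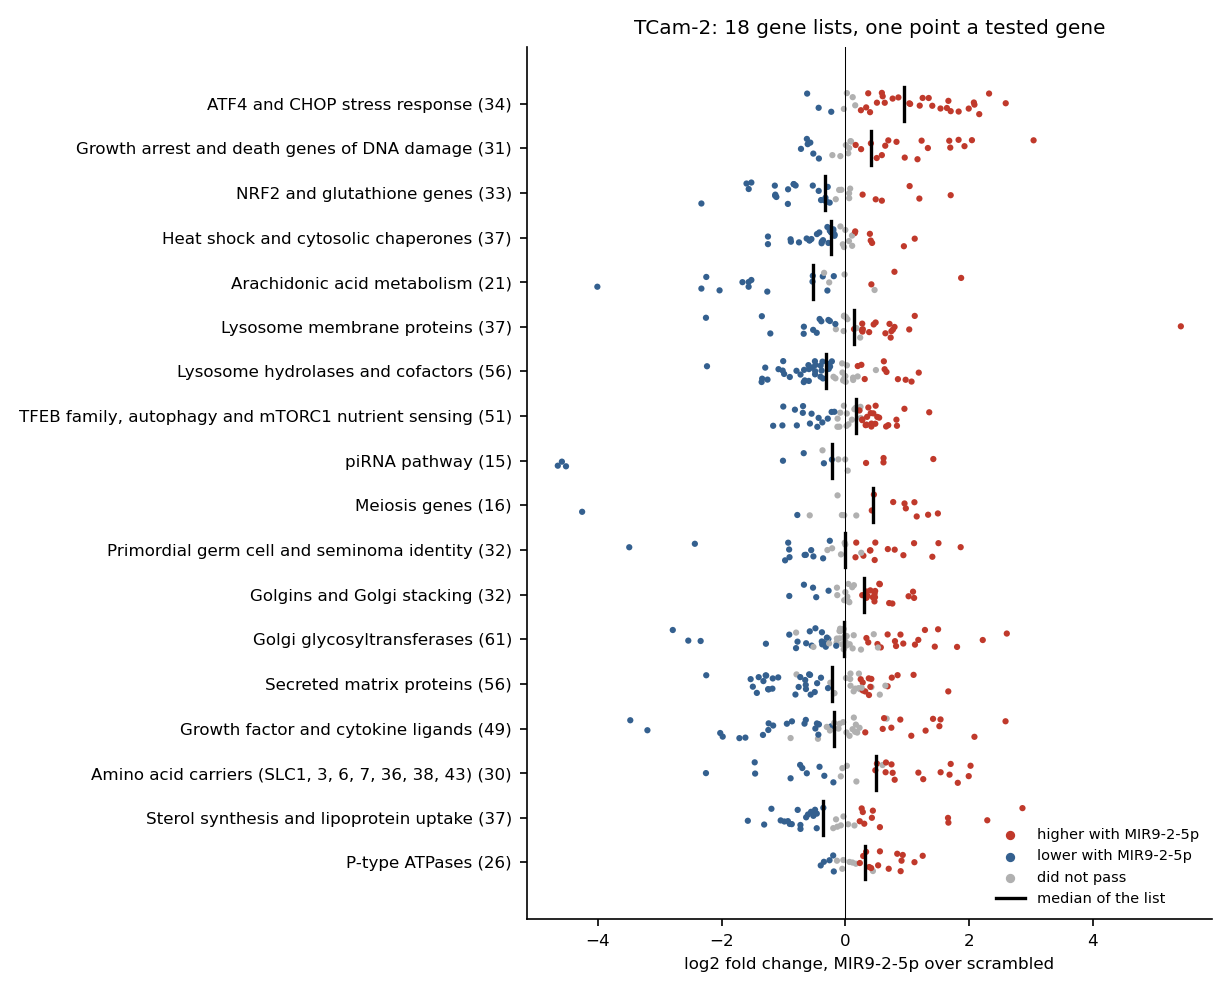
Log2 fold change (MIR9-2-5p over scrambled) of each tested member of 18 gene lists in TCam-2, with the number tested after the name of the list. Red points passed at an adjusted p under 0.05 as higher, blue as lower and grey did not pass, and the black bar is the median, which runs from -0.53 for arachidonic acid metabolism to 0.94 for the ATF4 and CHOP list.

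Cells answer a shortage of amino acids or misfolded protein in the ER through the kinases that phosphorylate eIF2, which raises translation of the transcription factor ATF4, and ATF4 with its partner CHOP (DDIT3) turns on genes for amino acid synthesis and uptake. Of 34 tested genes of this response 27 rose, 3 fell and 4 did not pass, with a median log2 fold change of 0.94, and 19 were higher past a fold of 1.5 while 0 were lower. STC2, a secreted glycoprotein, had 593, 522, 511 and 521 CPM in the MIR9-2-5p libraries, against 82.9, 90.1, 94.98 and 88.2 CPM in the scrambled libraries. The groups stood far apart (log2 fold change 2.59, SE 0.07, edgeR adjusted p = 2.48e-14). ASNS, asparagine synthetase, was at 16.2 ± 1.39 CPM in MIR9-2-5p libraries, against 3.25 ± 1.06 CPM in scrambled libraries (SD, n = 4 each). CTH, which makes cysteine from cystathionine, was at 139 ± 4.75 CPM in MIR9-2-5p libraries, against 31.1 ± 3.42 CPM in scrambled libraries (SD, n = 4 each). GDF15, a stress-induced hormone that acts on appetite, had 332, 335, 206 and 295 CPM in the MIR9-2-5p libraries, against 69.1, 67.8, 65.9 and 72.7 CPM in the scrambled libraries. Replicate 3 of MIR9-2-5p was the lowest of its group and still well above the highest scrambled library (log2 fold change 2.09, SE 0.12, edgeR adjusted p = 2.03e-09). DDIT3 itself, which overlaps MARS1 and MBD6 on the other strand, had 79.8, 71.9, 72.4 and 75.7 CPM in the MIR9-2-5p libraries, against 28.3, 33.9, 32.7 and 31.2 CPM in the scrambled libraries, with no overlap between the groups (log2 fold change 1.25, SE 0.08, edgeR adjusted p = 1.58e-10). The messenger RNA of ATF4 went the other way. It had 373, 346, 370.3 and 357 CPM in the MIR9-2-5p libraries, against 505, 599, 585 and 531 CPM in the scrambled libraries, and was lower in every MIR9-2-5p library (log2 fold change -0.62, SE 0.07, edgeR adjusted p = 1.89e-07). ATF5, a related factor, fell as well, by 0.43 on the log2 scale.

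The composite element bound by ATF4 with a C/EBP partner reads TGATGNAA, searched on both strands from 250 bases before to 50 bases after the start of each gene in RefSeq (GRCh38.p14). It was found for 9 of the 30 genes of the list that have a promoter in the table, for 319 of 11747 tested genes (2.72%) and for 1217 of 27305 genes in all (4.46%). Windows around the element, in capitals, are shown for ASNS and SLC7A1, which are named above or below, and for CHAC1, CEBPG and JDP2, picked after their values were seen to show both directions. Each is given on the strand that reads TGATGNAA.
ASNS, chr7:97872458-97872487, minus strand: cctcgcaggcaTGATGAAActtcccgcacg
SLC7A1, chr13:29595663-29595692, minus strand: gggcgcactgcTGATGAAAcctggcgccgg
CHAC1, chr15:40953251-40953280, minus strand: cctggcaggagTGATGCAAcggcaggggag
CEBPG, chr19:33374060-33374089, plus strand: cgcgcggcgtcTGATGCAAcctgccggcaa
JDP2, chr14:75427995-75428024, plus strand: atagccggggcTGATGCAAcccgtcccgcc
Log2 fold changes were 2.32 for ASNS, 1.99 for SLC7A1, 2.08 for CHAC1 and 1.20 for CEBPG, and -0.23 for JDP2, which fell. A match is a description of the sequence and not of binding.

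**Figure D3:**
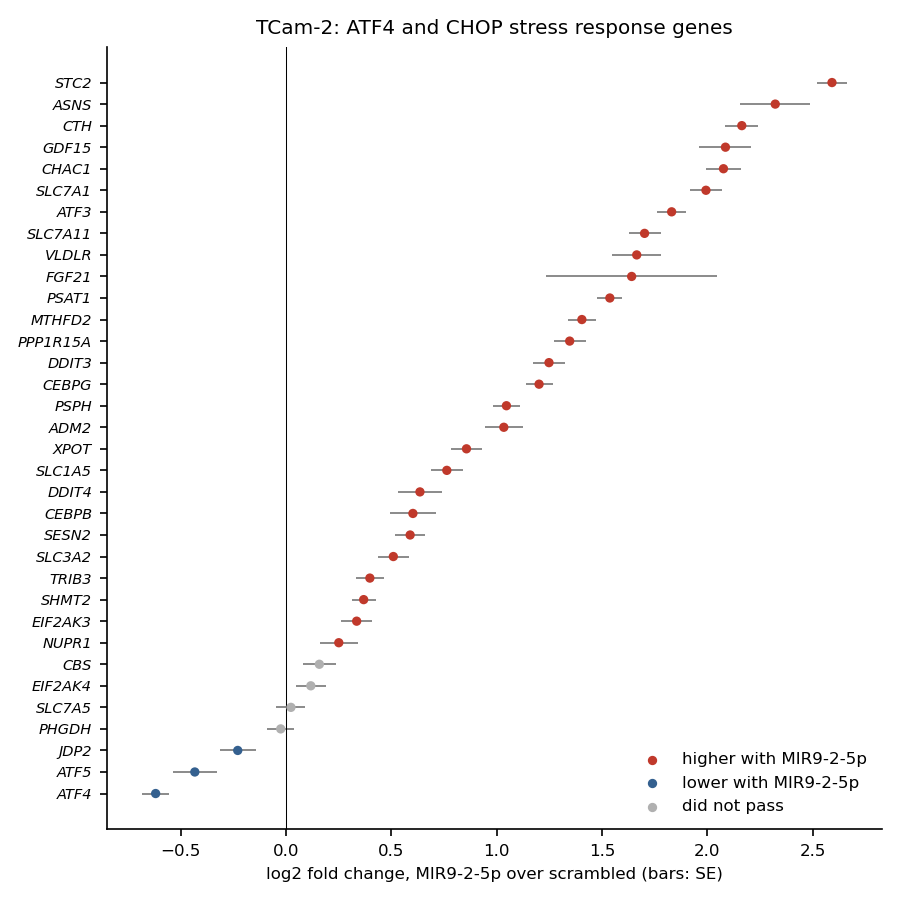
Log2 fold change (MIR9-2-5p over scrambled) with a standard error derived from the test's F statistic for the 34 tested genes of the ATF4 and CHOP stress response in TCam-2, ordered by size. Red points passed as higher (27), blue as lower (3) and grey did not pass (4), and ATF4 itself is the lowest point, at -0.62.

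Other stress lists moved less evenly. Of 33 tested ER chaperone and unfolded protein genes 15 rose and 13 fell (median -0.094). Of 37 heat shock and cytosolic chaperone genes 7 rose and 23 fell (median log2 fold change -0.23), of which 4 were lower past a fold of 1.5. CCT8, a subunit of the chaperonin that folds actin and tubulin, had 207, 221, 246 and 219 CPM in the MIR9-2-5p libraries, against 520.4, 549.8, 532 and 526 CPM in the scrambled libraries. It was far lower in every MIR9-2-5p library (log2 fold change -1.25, SE 0.06, edgeR adjusted p = 1.93e-11). HSPB1, a small heat shock protein, was at 57.9 ± 17.1 CPM in MIR9-2-5p libraries, against 138 ± 12.1 CPM in scrambled libraries (SD, n = 4 each), with replicate 3 of MIR9-2-5p the lowest library at 35.0 CPM. Against the majority, HSPA9, the mitochondrial HSP70, and HSPA4L rose, with log2 fold changes of 0.95 and 1.12. The heat-inducible HSPA1A had 0.11 (edgeR adjusted p = 0.748) and its activator HSF1 0.11 (edgeR adjusted p = 0.368), and their groups overlapped. Without replicate 3 of MIR9-2-5p the value of HSF1 was 0.23 and passed the test.

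DNA damage and other stresses turn on genes of growth arrest and cell death. Of 31 tested genes of this response 18 rose and 6 fell (median log2 fold change 0.41), and 11 were higher past a fold of 1.5. The largest changes were in receptors of the death ligand TRAIL. TNFRSF10B (DR5) had 323, 327, 334 and 327 CPM in the MIR9-2-5p libraries, against 81.1, 74.6, 81.1 and 80.95 CPM in the scrambled libraries. Each group was tight and they stood well apart (log2 fold change 2.04, SE 0.06, edgeR adjusted p = 4.82e-14). TNFRSF10A (DR4) was at 26.2 ± 2.11 CPM in MIR9-2-5p libraries, against 3.19 ± 1.00 CPM in scrambled libraries (SD, n = 4 each). TNFRSF10C, a decoy receptor, was at 38.7 ± 3.28 CPM in MIR9-2-5p libraries, against 10.8 ± 1.48 CPM in scrambled libraries (SD, n = 4 each). MDM2, a ubiquitin ligase, was at 579 ± 43.1 CPM in MIR9-2-5p libraries, against 229.7 ± 16.6 CPM in scrambled libraries (SD, n = 4 each). BTG2, which slows growth, was at 109 ± 2.11 CPM in MIR9-2-5p libraries, against 33.6 ± 2.42 CPM in scrambled libraries (SD, n = 4 each). CDKN1A, the cell cycle inhibitor p21, changed less, at 51.1 ± 5.90 CPM in MIR9-2-5p libraries, against 35.98 ± 2.62 CPM in scrambled libraries (SD, n = 4 each). BAX, which permeabilizes mitochondria, fell by 0.62 on the log2 scale, but its groups overlap, since replicate 1 of both groups lay at about the same level.

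NRF2, encoded by NFE2L2, drives genes of detoxification and glutathione. Of 33 tested genes of this group 6 rose and 21 fell (median log2 fold change -0.34), and 12 were lower past a fold of 1.5. NQO1, a quinone reductase often used to read NRF2 activity, had 108, 100.1, 120.2 and 111 CPM in the MIR9-2-5p libraries, against 233, 251, 249 and 232 CPM in the scrambled libraries. The MIR9-2-5p libraries were all well under the scrambled ones (log2 fold change -1.14, SE 0.07, edgeR adjusted p = 1.17e-10). GPX2, a glutathione peroxidase, was at 38.7 ± 1.56 CPM in MIR9-2-5p libraries, against 117 ± 7.61 CPM in scrambled libraries (SD, n = 4 each). GGT1, which cleaves extracellular glutathione, was at 2.79 ± 0.647 CPM in MIR9-2-5p libraries, against 14.1 ± 1.64 CPM in scrambled libraries (SD, n = 4 each). NFE2L2 itself was at 59.9 ± 3.78 CPM in MIR9-2-5p libraries, against 75.6 ± 3.22 CPM in scrambled libraries (SD, n = 4 each). SLC7A11, the cystine importer that ATF4 also drives, rose and was at 108 ± 10.04 CPM in MIR9-2-5p libraries, against 33.2 ± 0.34 CPM in scrambled libraries (SD, n = 4 each), HMOX1, heme oxygenase, rose by 0.49 and GSTM3 by 1.20 on the log2 scale. Of 21 genes of arachidonic acid metabolism 3 rose and 14 fell (median -0.53), 9 of them past a fold of 1.5, and with a minimum mean of 100 counts the median was -0.24. PTGES led this list, and CBR1, a carbonyl reductase, fell by 1.66, whereas ALOX5, which starts leukotriene synthesis, was at 9.58 ± 0.798 CPM in MIR9-2-5p libraries, against 2.62 ± 0.264 CPM in scrambled libraries (SD, n = 4 each), and PLA2G12A rose by 0.79. PTGS2 and PLA2G2A did not pass the filter on low counts, with 6 and 3 reads in the 4 MIR9-2-5p libraries and 4 and 47 in the scrambled libraries. In the lists given by counts alone, hypoxia genes had 4 higher and 15 lower of 26, NF-κB genes 4 and 11 of 20, interferon genes 9 and 10 of 24, HLA and antigen loading genes 4 and 6 of 14, and metallothioneins 3 and 0 of 7.

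Lysosomes break down material with acid hydrolases behind a membrane of heavily glycosylated proteins, and the factors TFEB, TFE3 and MITF drive many of their genes. The membrane and the hydrolases moved unevenly. Of 37 tested membrane proteins 17 rose and 12 fell (median log2 fold change 0.14), whereas of 56 hydrolases and their cofactors 10 rose and 32 fell (median -0.32), 10 of these past a fold of 1.5. The summed level of the 56 went the other way, at 5312 to 5706 CPM with MIR9-2-5p and 4729 to 5156 CPM with the scrambled control. Most hydrolase genes thus fell, but their total was higher in every MIR9-2-5p library, unlike the total of all tested genes. The members that carry the hydrolase total are not given here. The median of the membrane proteins was 0.076 without MIR9-2-5p replicate 4, 0.025 with no filter and 0.0047 with DESeq2, both over 41 genes, and 0.0060 with all 16 libraries in the fit, over 40. The abundant members moved far less than LAMP3. LAMP2 was at 202 ± 17.5 CPM in MIR9-2-5p libraries, against 144 ± 4.74 CPM in scrambled libraries (SD, n = 4 each), and LAMP1 had 439, 454, 374 and 419.5 CPM in the MIR9-2-5p libraries, against 459, 486, 468 and 476 CPM in the scrambled libraries. The groups of LAMP1 lie close together (log2 fold change -0.16, SE 0.07, edgeR adjusted p = 0.0355), and its call was lost without MIR9-2-5p replicate 3 (-0.11) or 4 (-0.16), without scrambled replicate 2 (-0.16), 3 (-0.18) or 4 (-0.18) with upper-quartile scaling (-0.14) and with a minimum mean of 100 counts (-0.13). SLC38A9, the arginine sensor of the lysosome membrane that acts on mTORC1, had 66.2, 69.5, 85.3 and 71.9 CPM in the MIR9-2-5p libraries, against 350.4, 342, 367 and 336 CPM in the scrambled libraries. Every MIR9-2-5p library was far below every scrambled library (log2 fold change -2.25, SE 0.08, edgeR adjusted p = 2.64e-13). MCOLN1, the calcium channel mucolipin 1, was at 13.7 ± 2.15 CPM in MIR9-2-5p libraries, against 32.04 ± 2.85 CPM in scrambled libraries (SD, n = 4 each). GLMP, a lysosome membrane glycoprotein, was at 34.6 ± 4.00 CPM in MIR9-2-5p libraries, against 88.4 ± 7.92 CPM in scrambled libraries (SD, n = 4 each).

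**Figure D4:**
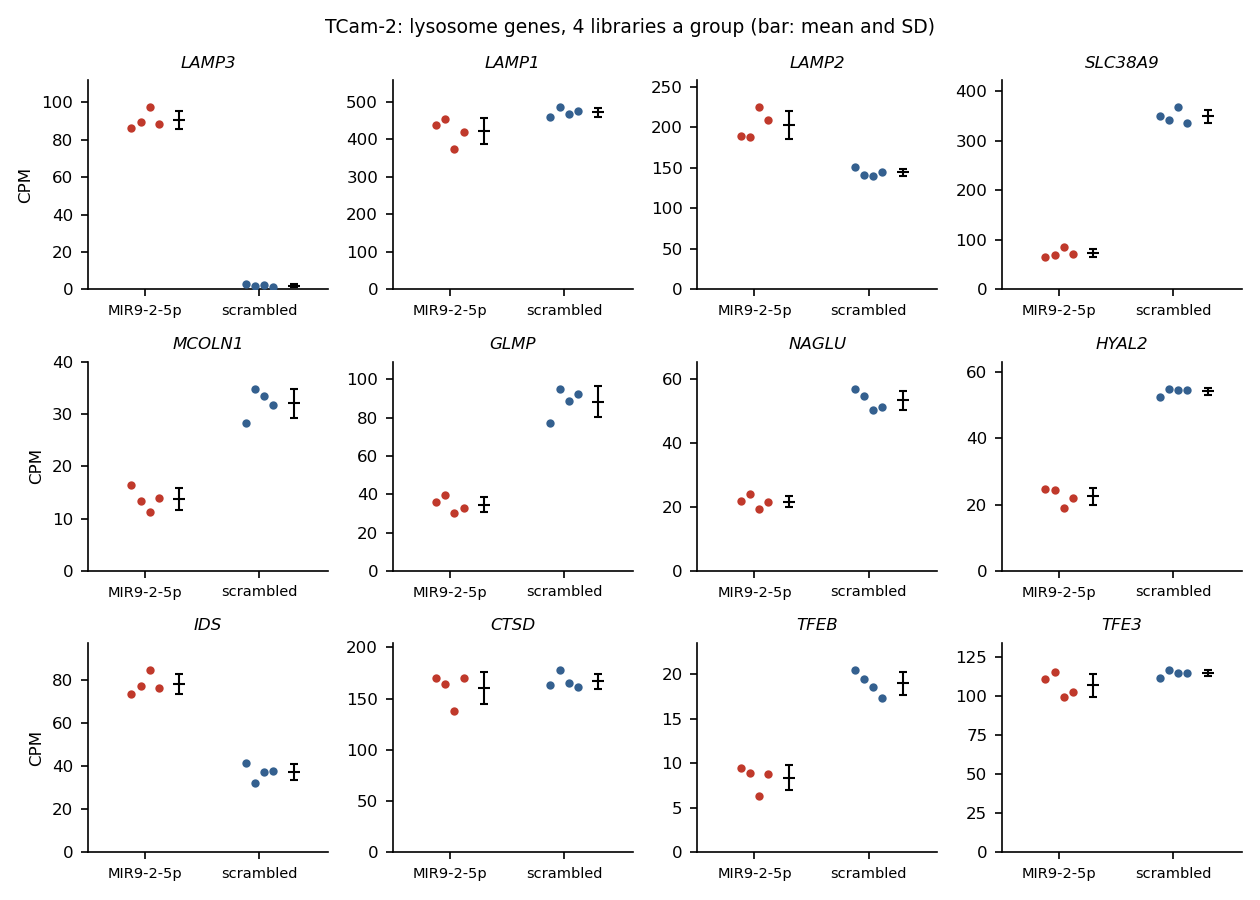
CPM of 12 lysosome genes in TCam-2, 1 point for each of 4 MIR9-2-5p libraries (red, left) and 4 scrambled libraries (blue, right), with the mean and SD as bars and each axis starting at 0. LAMP3, LAMP2 and IDS were higher with MIR9-2-5p and SLC38A9, MCOLN1, GLMP, NAGLU, HYAL2 and TFEB lower, while the groups of CTSD and TFE3 overlap.

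Among the hydrolases NAGLU, which degrades heparan sulfate, had 21.8, 23.9, 19.4 and 21.6 CPM in the MIR9-2-5p libraries, against 56.99, 54.7, 50.4 and 51.2 CPM in the scrambled libraries. The MIR9-2-5p libraries were all well below the scrambled ones (log2 fold change -1.30, SE 0.08, edgeR adjusted p = 2.89e-10). HYAL2, a hyaluronidase that overlaps TUSC2, was at 22.5 ± 2.59 CPM in MIR9-2-5p libraries, against 54.1 ± 1.10 CPM in scrambled libraries (SD, n = 4 each). ACP5, a phosphatase with few reads here, was at 2.26 ± 0.413 CPM in MIR9-2-5p libraries, against 5.78 ± 0.821 CPM in scrambled libraries (SD, n = 4 each). Against these, AGA, which cleaves sugars from asparagine, was at 24.5 ± 2.41 CPM in MIR9-2-5p libraries, against 10.7 ± 2.16 CPM in scrambled libraries (SD, n = 4 each). IDS, another enzyme of heparan sulfate breakdown, was at 78.1 ± 4.65 CPM in MIR9-2-5p libraries, against 37.3 ± 3.73 CPM in scrambled libraries (SD, n = 4 each). CTSD, the main aspartic protease, and HEXA, a subunit of hexosaminidase, had values of -0.05 and -0.03 and did not pass (edgeR adjusted p = 0.528 and 0.802). TFEB had 9.48, 8.95, 6.36 and 8.75 CPM in the MIR9-2-5p libraries, against 20.4, 19.4, 18.6 and 17.3 CPM in the scrambled libraries, with no overlap (log2 fold change -1.17, SE 0.12, edgeR adjusted p = 1.16e-07). TFE3, more abundant, had -0.10 (edgeR adjusted p = 0.197) and MITF, at the lower end of what was tested, 0.34 (edgeR adjusted p = 0.246). Over 51 tested genes of this family, of autophagy and of nutrient sensing, 21 rose and 15 fell (median 0.17). CALCOCO2, a receptor for selective autophagy, rose by 0.95, and the ATG8 protease ATG4B and MAP1LC3A fell by 1.02 and 1.00 on the log2 scale. SQSTM1 (p62) had -0.18 (edgeR adjusted p = 0.035), and its groups overlapped. This call was lost under 7 of the alternatives run, among them without MIR9-2-5p replicate 3 (-0.13) or 4 (-0.16) and without scrambled replicate 2 (-0.18) or 4 (-0.19). The sequence TCACGTGA, the core of the element that TFEB binds, searched on both strands of the same windows, was found for 6 of 33 membrane genes and 5 of 39 hydrolase genes with a promoter in the table, and for 251 of 11747 tested genes (2.14%) and 321 of 27305 in all (1.18%). Delivery factors and adaptors had 15 higher and 11 lower of 37, the vacuolar ATPase 7 and 9 of 23, and VPS and SNX sorting genes 17 and 32 of 73.

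Germ cells keep transposons silent with piRNAs, short RNAs made and used by PIWI proteins with Tudor partners in germ granules. Of 28 listed genes of this pathway 15 were tested, and 4 rose and 7 fell (median log2 fold change -0.22). The median was -0.14 without MIR9-2-5p replicate 1, -0.13 with all 16 libraries in the fit and -0.0065 with a minimum mean of 100 counts. RNF17, a Tudor and RING protein of the germ granule, had 0.74, 1.05, 0.536 and 0.617 CPM in the MIR9-2-5p libraries, against 21.9, 14.7, 17.8 and 17.4 CPM in the scrambled libraries. TDRD9, a Tudor helicase, had 0.839, 0.527, 1.27 and 0.898 CPM in the MIR9-2-5p libraries, against 21.6, 18.2, 19.9 and 20.9 CPM in the scrambled libraries. Both were at or under 1.3 CPM in all MIR9-2-5p libraries and above 14 CPM in all scrambled libraries (log2 fold changes -4.58 and -4.52). TDRD10 fell by 0.67. PLD6 (MitoPLD, which acts in piRNA processing in mice) was at 9.33 ± 0.911 CPM in MIR9-2-5p libraries, against 3.46 ± 0.61 CPM in scrambled libraries (SD, n = 4 each), and PIWIL4, at 8.62 ± 0.652 CPM in MIR9-2-5p libraries, against 5.63 ± 0.545 CPM in scrambled libraries (SD, n = 4 each), and TDRD7, at 18.5 ± 2.68 CPM in MIR9-2-5p libraries, against 12.1 ± 1.31 CPM in scrambled libraries (SD, n = 4 each), rose. PIWIL2, DDX4 and TDRD1 were not tested, with 22, 16 and 12 reads in the MIR9-2-5p libraries and 24, 31 and 37 in the scrambled libraries. With genes kept only above a mean of 100 counts, 4 of the piRNA genes rose and 2 fell.

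Of 16 tested genes of meiosis 9 rose and 2 fell (median log2 fold change 0.44). MEIOC, which with YTHDC2 lets germ cells enter meiosis in mice, had 15.4, 16.4, 15.5 and 15.7 CPM in the MIR9-2-5p libraries, against 5.55, 4.77, 6.22 and 5.89 CPM in the scrambled libraries. All 4 MIR9-2-5p libraries were well above the highest scrambled library (log2 fold change 1.49, SE 0.11, edgeR adjusted p = 2.73e-09). STAG3, a cohesin subunit of meiosis, was at 9.72 ± 0.82 CPM in MIR9-2-5p libraries, against 4.50 ± 0.819 CPM in scrambled libraries (SD, n = 4 each). MSH5, a crossover protein that overlaps CLIC1 and SAPCD1, was at 4.34 ± 0.646 CPM in MIR9-2-5p libraries, against 2.21 ± 0.127 CPM in scrambled libraries (SD, n = 4 each). SYCP2, a protein of the synaptonemal complex, went the other way, at 20.4 ± 2.41 CPM in MIR9-2-5p libraries, against 34.9 ± 0.454 CPM in scrambled libraries (SD, n = 4 each), and SYCP3 was not tested, with 24 reads in each group. Genes of primordial germ cell and seminoma identity split nearly evenly, with 14 of 32 higher and 12 lower. KIT, the receptor of stem cell factor, had 80.1, 91.1, 98.7 and 84.4 CPM in the MIR9-2-5p libraries, against 31.3, 34.9, 33.1 and 34.4 CPM in the scrambled libraries. It was higher in every MIR9-2-5p library (log2 fold change 1.41, SE 0.08, edgeR adjusted p = 5.57e-11). ITGA6, an integrin of primordial germ cells, was at 753 ± 57.4 CPM in MIR9-2-5p libraries, against 207 ± 8.71 CPM in scrambled libraries (SD, n = 4 each). DPPA3 (STELLA) was at 21.04 ± 2.45 CPM in MIR9-2-5p libraries, against 7.37 ± 1.35 CPM in scrambled libraries (SD, n = 4 each). PRDM1 (BLIMP1) was at 94.03 ± 4.35 CPM in MIR9-2-5p libraries, against 54.1 ± 0.923 CPM in scrambled libraries (SD, n = 4 each). TCL1A, a kinase coactivator, had 2.37, 2.46, 1.27 and 3.70 CPM in the MIR9-2-5p libraries, against 25.4, 28.2, 27.8 and 31.05 CPM in the scrambled libraries, with the lowest value in replicate 3 of MIR9-2-5p (log2 fold change -3.49, SE 0.17, edgeR adjusted p = 2.28e-11). NANOS3, an RNA-binding protein that keeps primordial germ cells alive, was at 1.49 ± 0.724 CPM in MIR9-2-5p libraries, against 8.17 ± 1.56 CPM in scrambled libraries (SD, n = 4 each). The core factors changed less: TFAP2C rose by 0.48, NANOG by 0.69, and POU5F1, whose reads its pseudogenes may share, fell by 0.25 on the log2 scale. SOX17 had 0.26 (edgeR adjusted p = 0.0649) with overlapping groups, and passed without MIR9-2-5p replicate 3 (0.39), with upper-quartile scaling (0.28), with no filter (0.25) and with a minimum mean of 100 counts (0.29). Among genes the study names for these cells, PHC1, a Polycomb subunit that overlaps M6PR, LIN28A, which blocks let-7 processing, and BCAT1, a branched-chain aminotransferase, fell by 1.51, 0.91 and 1.01, and PHB2, a prohibitin, by 0.37. POU5F1P3, POU5F1B and DDX47 were called as lower too, with log2 fold changes of -0.80, -0.54 and -0.55 (edgeR adjusted p = 0.0236, 0.0257 and 0.0207). They had few reads and overlapping groups. The study also reports POU5F1P3 as lower in these cells by quantitative PCR. Cancer testis antigens were almost all below the filter, with 5 of 75 tested, of which 4 fell.

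Proteins bound for the surface pass from the ER through the Golgi, whose stacks are held by golgins. Of 32 tested golgins and stacking factors 17 rose and 5 fell (median log2 fold change 0.31). GCC1, a golgin of the trans-Golgi network that overlaps ARF5, had 40.1, 44.3, 40.1 and 40.9 CPM in the MIR9-2-5p libraries, against 18.5, 17.98, 20.9 and 19.3 CPM in the scrambled libraries. The groups did not overlap (log2 fold change 1.11, SE 0.08, edgeR adjusted p = 2.05e-09). COG5 and COG4, subunits of the same tethering complex, moved in opposite directions, with COG5 at 30.98 ± 1.33 CPM in MIR9-2-5p libraries, against 14.5 ± 1.31 CPM in scrambled libraries (SD, n = 4 each) and COG4 at 52.2 ± 1.96 CPM in MIR9-2-5p libraries, against 97.96 ± 2.80 CPM in scrambled libraries (SD, n = 4 each). GOLGA2 (GM130) was at 104 ± 9.62 CPM in MIR9-2-5p libraries, against 63.6 ± 2.10 CPM in scrambled libraries (SD, n = 4 each), and GOLGA1 rose by 1.02 and GOLIM4 fell by 0.67 on the log2 scale. Golgi glycosyltransferases had 17 higher and 19 lower of 61, and among them ST8SIA4, which builds polysialic acid on neural cell adhesion molecules, had 4.34, 6.26, 9.31 and 6.79 CPM in the MIR9-2-5p libraries, against 1.04, 1.16, 1.11 and 0.993 CPM in the scrambled libraries. It was low in every scrambled library (log2 fold change 2.61, SE 0.24, edgeR adjusted p = 2.77e-08). ST3GAL6, a sialyltransferase that overlaps DCBLD2, was at 1.81 ± 0.256 CPM in MIR9-2-5p libraries, against 9.21 ± 0.858 CPM in scrambled libraries (SD, n = 4 each). B3GNT5, which starts lacto-series glycolipids, was at 25.95 ± 1.82 CPM in MIR9-2-5p libraries, against 9.18 ± 0.558 CPM in scrambled libraries (SD, n = 4 each). B3GALT9 rose by 2.22. COPII and COPI coats had 19 higher and 10 lower of 39, the translocon and N-glycosylation genes 21 and 21 of 56, SNAREs and the exocyst 20 and 10 of 46, RAB GTPases 21 and 19 of 56, and granins and peptide hormone processing 7 and 7 of 19.

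Of 56 tested genes for secreted matrix proteins 13 rose and 26 fell (median log2 fold change -0.21), 14 of them past a fold of 1.5. Without MIR9-2-5p replicate 3 the median of this list was -0.11, with 15 higher and 26 lower. COL3A1, a fibrillar collagen, had 18.4, 17.9, 14.7 and 14.5 CPM in the MIR9-2-5p libraries, against 46.4, 50.7, 44.2 and 48.9 CPM in the scrambled libraries. Each MIR9-2-5p library was well below each scrambled library (log2 fold change -1.53, SE 0.09, edgeR adjusted p = 1.73e-10). FBLN1 was at 49.1 ± 7.70 CPM in MIR9-2-5p libraries, against 139 ± 8.12 CPM in scrambled libraries (SD, n = 4 each) and COL6A2 at 26.2 ± 6.81 CPM in MIR9-2-5p libraries, against 69.7 ± 4.14 CPM in scrambled libraries (SD, n = 4 each). FN1, fibronectin, was at 137 ± 7.39 CPM in MIR9-2-5p libraries, against 202 ± 14.4 CPM in scrambled libraries (SD, n = 4 each). LAMA4, a laminin chain of basement membranes, rose, with 169, 189, 186 and 182 CPM in the MIR9-2-5p libraries, against 55.7, 58.4, 57.2 and 57.6 CPM in the scrambled libraries, and COL7A1, the anchoring fibril collagen, was at 86.5 ± 15.8 CPM in MIR9-2-5p libraries, against 40.4 ± 3.60 CPM in scrambled libraries (SD, n = 4 each). The groups of both stood clear of each other. Of 49 growth factor and cytokine ligands 12 rose and 20 fell (median -0.18, and -0.10 with no filter). CXCL14, a chemokine, had 2.42, 2.81, 2.95 and 3.48 CPM in the MIR9-2-5p libraries, against 23.3, 30.1, 25.5 and 28.00 CPM in the scrambled libraries, with all MIR9-2-5p libraries far below the scrambled ones (log2 fold change -3.20, SE 0.13, edgeR adjusted p = 1.39e-12). CX3CL1 (fractalkine) was at 0.623 ± 0.239 CPM in MIR9-2-5p libraries, against 6.92 ± 0.638 CPM in scrambled libraries (SD, n = 4 each) and WNT11 at 1.49 ± 1.00 CPM in MIR9-2-5p libraries, against 6.29 ± 1.70 CPM in scrambled libraries (SD, n = 4 each). For WNT11, replicates 1 and 4 of MIR9-2-5p were above replicates 2 and 3, and scrambled replicate 1 was the lowest of its group. VEGFA, the main angiogenic factor, had 104, 92.7, 89.6 and 86.7 CPM in the MIR9-2-5p libraries, against 44.6, 42.8, 44.3 and 46.6 CPM in the scrambled libraries, and rose with no overlap (log2 fold change 1.06, SE 0.07, edgeR adjusted p = 7.40e-10). Serpins had 3 higher and 4 lower of 11, and metalloproteases with their inhibitors 13 and 17 of 42.

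Carriers of the SLC families had 88 higher and 79 lower of 230 tested, close to the background. Those of amino acids had 15 higher and 10 lower of 30, and 11 higher and 4 lower past a fold of 1.5, with a median log2 fold change of 0.50, or 0.29 with no filter and 0.27 with DESeq2. This list shares members with the ATF4 and CHOP list, among them SLC7A1, SLC1A5 and SLC3A2, so that the counts of these lists are not separate results. SLC7A1 (CAT1), the cationic amino acid importer, had 173, 165, 141 and 159 CPM in the MIR9-2-5p libraries, against 42.9, 38.1, 38.3 and 41.2 CPM in the scrambled libraries. The lowest MIR9-2-5p library was far above the highest scrambled one (log2 fold change 1.99, SE 0.08, edgeR adjusted p = 6.71e-13). SLC1A4 (ASCT1), for serine and alanine, was at 94.1 ± 5.38 CPM in MIR9-2-5p libraries, against 23.2 ± 1.79 CPM in scrambled libraries (SD, n = 4 each). SLC1A1, for glutamate, was at 8.41 ± 0.879 CPM in MIR9-2-5p libraries, against 2.36 ± 0.669 CPM in scrambled libraries (SD, n = 4 each). SLC7A8 (LAT2), for large neutral amino acids, had 81.6, 77.3, 75.4 and 75.5 CPM in the MIR9-2-5p libraries, against 222, 206, 215 and 213 CPM in the scrambled libraries, and fell together with SLC38A9 (log2 fold change -1.47, SE 0.06, edgeR adjusted p = 1.93e-12). Sterol synthesis and lipoprotein uptake genes had 11 higher and 19 lower of 37 (median -0.36). LSS, which closes the sterol rings from squalene epoxide, had 63.6, 64.1, 45.7 and 57.3 CPM in the MIR9-2-5p libraries, against 162, 173, 177 and 178 CPM in the scrambled libraries, with no overlap (log2 fold change -1.58, SE 0.09, edgeR adjusted p = 6.86e-11), and TM7SF2, a sterol reductase that overlaps VPS51, was at 23.3 ± 3.35 CPM in MIR9-2-5p libraries, against 58.1 ± 5.06 CPM in scrambled libraries (SD, n = 4 each). ABCA1, which exports cholesterol to apolipoprotein A-I, had 125, 123, 139 and 125 CPM in the MIR9-2-5p libraries, against 31.9, 21.3, 24.99 and 26.3 CPM in the scrambled libraries. All MIR9-2-5p libraries were far above all scrambled libraries (log2 fold change 2.29, SE 0.10, edgeR adjusted p = 2.20e-12). VLDLR, a lipoprotein receptor, was at 22.98 ± 2.55 CPM in MIR9-2-5p libraries, against 7.21 ± 0.851 CPM in scrambled libraries (SD, n = 4 each), and the regulators changed little, with 0.28 for SREBF2 and 0.04 for SREBF1 (edgeR adjusted p = 0.719), whose groups overlap. In 1 of the fits run, that without MIR9-2-5p replicate 3, SREBF1 passed (0.15). P-type ATPases, which pump ions or flip lipids, had 14 higher and 5 lower of 26 (median 0.31). Over the 37 tested with no filter or with DESeq2 the median was 0.11 and 0.081, with 14 higher and 7 lower in each, and over the 32 of the fit with all libraries it was 0.13, with 14 and 8. They were led by the flippase ATP8A1 at 57.5 ± 5.34 CPM in MIR9-2-5p libraries, against 24.2 ± 0.672 CPM in scrambled libraries (SD, n = 4 each), the muscle calcium pump ATP2A1 (1.12), the flippase ATP11A (0.93) and ATP13A3 (0.91), while ATP8B2 and ATP13A1 fell by 0.40 and 0.35 on the log2 scale. By counts, glucose and monocarboxylate carriers had 10 higher and 8 lower of 27, zinc carriers 8 and 6 of 19, mitochondrial carriers 11 and 16 of 39, nucleotide sugar carriers 13 and 3 of 22, ion exchangers 15 and 8 of 26, ABC transporters 9 and 7 of 30, potassium channels 8 and 16 of 45, aquaporins 0 and 3 of 5, nuclear import and export factors 8 and 16 of 32, nucleoporins 6 and 6 of 21, kinesins 13 and 13 of 34, and iron genes 7 and 9 of 22.

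An interaction term in a fit of all 16 libraries tested whether TCam-2 and NT2/D1 differed in their response. It was higher in TCam-2 for 4950 (25.3%) and lower for 5464 (27.9%) of 19576 genes at an adjusted p under 0.05. Of the ATF4 and CHOP list, 22 of 34 had a higher and 2 a lower response in TCam-2. STC2 had log2 fold changes of 2.59 in TCam-2 and -0.39 in NT2/D1 (difference 2.96, edgeR adjusted p = 1.34e-16), and DDIT3 had 1.25 and -0.26 (difference 1.49, edgeR adjusted p = 7.86e-11). For ATF4 the difference was -0.19 and did not pass (edgeR adjusted p = 0.0826), and it was -0.25 and passed without scrambled replicate 1 of TCam-2. Lysosome hydrolases had a higher response in TCam-2 in 6 and a lower one in 38 of 56, and for TFEB the values were -1.17 in TCam-2 and 2.11 in NT2/D1 (difference -3.30, edgeR adjusted p = 3.22e-05). NQO1 had -1.14 in TCam-2 and 1.59 in NT2/D1 (difference -2.75, edgeR adjusted p = 1.12e-17), and CDKN1A, which rose in both lines, had 0.51 and 3.22 (difference -2.74, edgeR adjusted p = 4.02e-15). Secreted matrix genes had a higher response in TCam-2 in 10 and a lower one in 37 of 56, with COL3A1 at -1.53 in TCam-2 and 2.81 in NT2/D1 (difference -4.36, edgeR adjusted p = 1.54e-15). DPPA3 had 1.504 in TCam-2 and -3.14 in NT2/D1 (difference 4.63, edgeR adjusted p = 3.36e-13). LAMP3 rose in both lines, by 5.42 in TCam-2 and 1.20 in NT2/D1 (difference 4.21, edgeR adjusted p = 1.42e-10). Some of these genes were low in NT2/D1. There the scrambled mean of LAMP3 was 0.595 CPM and its mimic mean 1.38 CPM, and for TFEB these were 0.239 and 1.01 CPM. The sizes of these 2 changes in NT2/D1 thus rest on low levels, unlike that of STC2 (81.8 and 62.6 CPM). GDF15 and BTG2, chosen after their values were seen and not plotted, had close values in the lines, with 2.09 and 1.69 in TCam-2 and 2.20 and 1.87 in NT2/D1, and neither difference passed (edgeR adjusted p = 0.752 and 0.127), which does not show that the responses are alike. With upper-quartile scaling the median of this difference over all genes shifted by 0.13, and 5872 genes were then higher and 4686 lower.

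**Figure D5:**
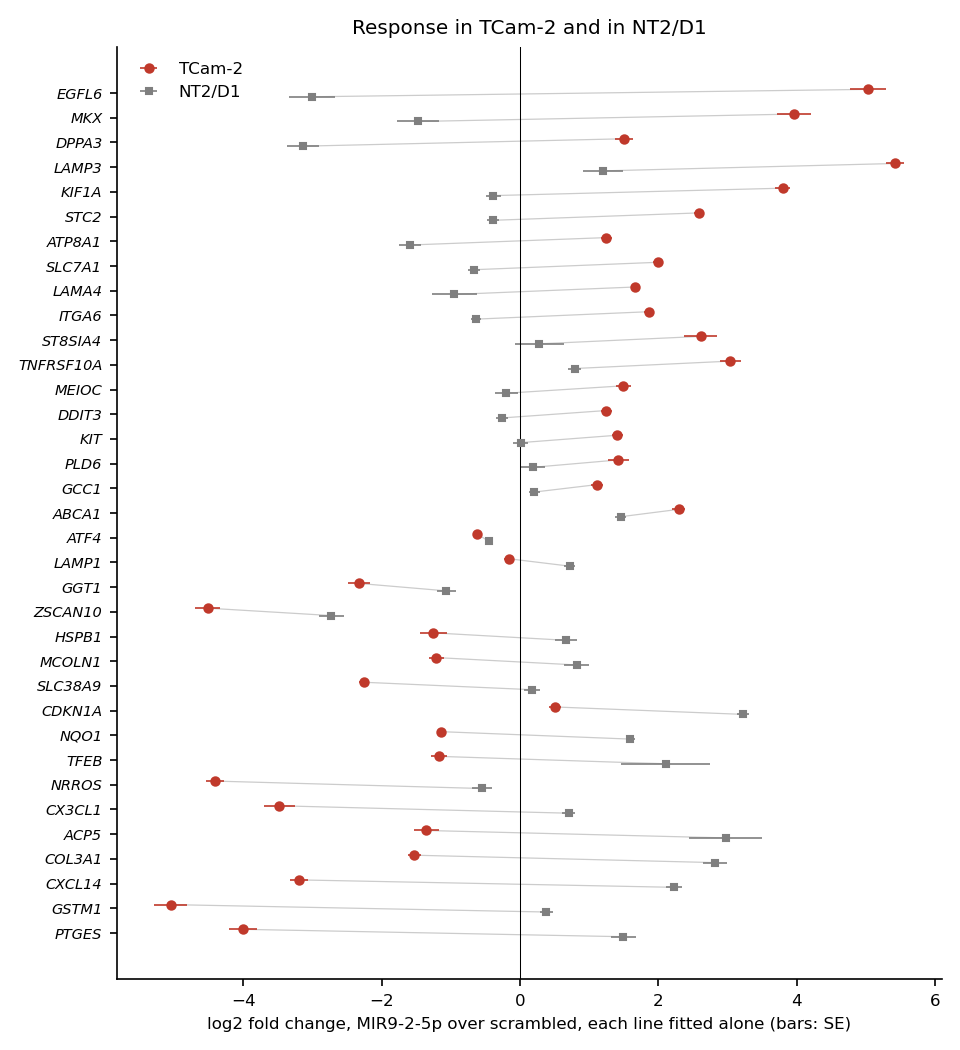
Log2 fold change (MIR9-2-5p over scrambled) with a standard error derived from the test's F statistic for 35 genes in TCam-2 (red circles) and NT2/D1 (grey squares), each line fitted alone, ordered by the difference between the lines. Most were picked for the size of their change in TCam-2, so that how many of them differ between the lines is no result, and the difference runs from 8.01 for EGFL6 to -5.52 for PTGES. Some genes were low in NT2/D1, such as EGFL6, whose scrambled mean there was 2.34 CPM and mimic mean 0.284 CPM.

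Markers of cells that a culture of TCam-2 should not hold were looked at in the same libraries. Lymphocyte markers summed to 6.69 to 7.90 CPM in the MIR9-2-5p libraries, against 9.41 to 12.5 CPM in the scrambled libraries. MS4A1 and CD3E had 0 reads in all 8 libraries, and the members that carry this sum are not given here. For macrophage markers the sums were 7.78 to 9.50 CPM, against 11.9 to 13.2 CPM. Of these markers C1QA, C1QB and TYROBP had 0 reads in all 8 libraries. CSF1R, however, was present, at a mean of 3.9 CPM (270 reads), against 9.3 CPM (625 reads). It made up most of the scrambled sum. Fibroblast markers summed to 205 to 238 CPM with MIR9-2-5p and 528 to 562 CPM with the scrambled control, and 7 of 8 tested fell, chiefly COL1A2 (163 and 398 CPM on average), while COL1A1 was at 12.1 and 10.7 CPM. Epithelial markers, which seminoma cells in part express, summed to 3761 to 4085 CPM and 7472 to 8794 CPM, and 12 of 18 fell and 4 rose. Of EC markers 3 rose and 5 fell of 12, of extraembryonic markers 3 rose and 5 fell of 10, of neural markers 2 rose and 1 fell of 7, of endothelial markers 1 rose and 3 fell of 5, and of Sertoli and Leydig markers 3 rose and 3 fell of 6. Neural markers summed to 72.7 to 100.1 CPM with MIR9-2-5p and 186.5 to 226.7 CPM with the scrambled control. Their total thus fell although SOX1 rose and only 1 of the 7 tested was called as lower. Which members carry the total is not given here. The sums were 54.9 to 75.2 CPM and 106.1 to 128.7 CPM for extraembryonic markers, and 340 to 351 CPM and 443 to 465 CPM for EC markers. For endothelial markers they were 32.2 to 36.1 CPM and 45.2 to 51.5 CPM, and for Sertoli and Leydig markers 94.8 to 119.4 CPM and 98.7 to 107.2 CPM. The fibroblast list shares its collagens with the secreted matrix list, and the part of such cells in the fall of matrix genes was not tested.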

How the data were processed

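RNA from 8 TCam-2 and 8 NT2/D1 libraries was read as 1 table of whole-number counts per gene that the authors deposited. By the study's methods, reads were cleaned with fastp, aligned with STAR and counted with featureCounts. The submitters' processing notes list GRCh38, STAR, featureCounts, FastQC, cutadapt and Trim Galore without their roles, and which trimmer was used for the deposited counts is not settled by them. Annotation release: not given in the sources used here, nor is the strand setting. Of 58735 IDs 58207 matched GENCODE 44, which gave symbols, positions and 3′ UTRs. No other per-sample columns were found (0). Groups follow the sample labels.

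The counts were tested with edgeR 4.0.16 in R 4.3.3 (TMM scaling, filterByExpr with a minimum count of 10 and total of 15, robust quasi-likelihood test, glmTreat for a fold of 1.5, Benjamini-Hochberg adjustment over all genes tested, two-sided). The 8 TCam-2 libraries were fitted alone, and the difference between lines as an interaction over 16 libraries. Each standard error (SE) was derived as the size of the log2 fold change divided by the square root of the test's F statistic. CPM use TMM library sizes of the 8 TCam-2 libraries (of all 16 for the line and marker checks). Depth was 14167738 counts or more in each TCam-2 library, and counting error weighs on genes with few reads. No 2 replicates of a group agreed within sampling noise. The tests were tried on simulated counts with known changes in few genes, of random sign and at 1 fixed dispersion. In these data most genes were called, so that the trial does not bear on the scaling or on the calls made here.

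Genes, lists, members and figures were chosen with earlier results of these data known. Named were 12 rises and 12 falls, the largest in protein-coding genes whose adjusted p was under 0.05, whose counts averaged 50 or more and whose groups do not overlap. Of each of 18 lists, the 4 called members with the largest change, up to 2 against the majority and set key genes were named, and genes the study's text names for TCam-2. Other lists are given by counts. Some genes that these rules name are not reported here by name, though they stay in the counts. Alternatives were RLE and upper-quartile factors, DESeq2 1.42.0, no filter, a minimum mean of 100 counts, 1 fit of all libraries, protein-coding genes alone, the replicate number as a block, and each library left out. Sequences are from RefSeq (GRCh38.p14) and GRCh38, and tables and figures were made in Python 3.11.15.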

Additional observations from a re-analysis of the deposited data

Results flagged for a closer look

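Of 272 groups of 4 libraries looked at for 136 named genes, 13 (4.78%) held a library far from the other 3 by Dixon's test, where chance alone gives about 1 in 20. Replicate 3 of MIR9-2-5p was that library 5 times. It was the highest for ABCA1 (139 CPM, the others 123 to 125), HSPA9 (1144 CPM), PRDM1 (101 CPM, the others 91.4 to 92.2) and GSTM1 (0.469 CPM, the others 0.197 to 0.234), and the lowest for CTSD (138 CPM, the others 165 to 170). STC2 was highest in MIR9-2-5p replicate 1 (593 CPM) and TDRD7 in replicate 2 (22.5 CPM). Among the scrambled libraries, B3GALT9 was highest in replicate 1 (2.83 CPM), WNT11 lowest in replicate 1 (3.76 CPM), TNFRSF10B lowest in replicate 2 (74.6 CPM), AGA and CLGN highest in replicate 3 (13.9 and 2.39 CPM), and CALCOCO2 lowest in replicate 4 (44.5 CPM). For each of these genes other than CTSD the groups remained apart.

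Of 35 genes plotted for both lines, mostly picked for the size of their change in TCam-2 and some after their values were seen, 34 differed in their response by edgeR's interaction test at an adjusted p under 0.05, a count that this choice largely sets. Over all 19576 genes 25.3% had a higher and 27.9% a lower response in TCam-2. Given as the log2 fold change of TCam-2 minus that of NT2/D1, the genes that were called as higher in TCam-2 and lower in NT2/D1 were EGFL6 (8.01), MKX (5.43), DPPA3 (4.63), KIF1A (4.16), STC2 (2.96), ATP8A1 (2.83), SLC7A1 (2.64), LAMA4 (2.58), ITGA6 (2.48) and DDIT3 (1.49). Higher in both lines but more so in TCam-2 were LAMP3 (4.21), TNFRSF10A (2.24), GCC1 (0.88) and ABCA1 (0.83), and CDKN1A was higher in both and less so in TCam-2 (-2.74). Called as higher in TCam-2 alone were ST8SIA4 (2.32), MEIOC (1.68), KIT (1.38) and PLD6 (1.22). Lower in TCam-2 and higher in NT2/D1 were PTGES (-5.52), GSTM1 (-5.45), CXCL14 (-5.44), COL3A1 (-4.36), ACP5 (-4.34), CX3CL1 (-4.20), TFEB (-3.30), NQO1 (-2.75), MCOLN1 (-2.05), HSPB1 (-1.93) and LAMP1 (-0.90). NRROS (-3.87), ZSCAN10 (-1.81) and GGT1 (-1.28) were lower in both and more so in TCam-2, and SLC38A9 (-2.44) was called as lower in TCam-2 alone. Some of these genes were low in NT2/D1, so that the size of their difference rests on low levels there. The scrambled and mimic means in NT2/D1 were 2.34 and 0.284 CPM for EGFL6, and 1.18 and 0.598 CPM for LAMA4. For ACP5 they were 0.23 and 1.83 CPM.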

How the results depend on the processing

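The counts of higher and lower genes over all genes tested in TCam-2 stayed within 1.5 times their values under every alternative run except 1: with a minimum mean of 100 counts, which leaves 11162 genes, 2526 genes were called past a fold of 1.5, 1281 higher and 1245 lower. That filter also left 6 lower genes of arachidonic acid metabolism, 2 lower piRNA genes and 5 higher meiosis genes. Among members that went against the majority of their list, it left 5 higher growth factor and cytokine ligands (12 in the main fit). It likewise left 7 higher sterol genes (11) and 1 lower meiosis gene (2). Under another alternative, 1 fit of all libraries, 8 P-type ATPases were lower (5 in the main fit). Among the named genes no call changed sign, while CTSD, HEXA, HSPA1A and SREBF1, which did not pass, had values on both sides of 0. Among 136 named genes and 2011 refits 23 calls were lost and 7 gained, all in LAMP1, SQSTM1, SOX17, SREBF1, HSF1, DDX47, POU5F1B and POU5F1P3. SQSTM1 lost its call with upper-quartile scaling, the minimum of 100 counts, 1 fit of all libraries, or without MIR9-2-5p replicate 3 or 4 or scrambled replicate 2 or 4 (log2 fold changes of -0.13 to -0.19). SOX17 passed with upper-quartile scaling (0.28), no filter (0.25), the minimum of 100 counts (0.29) and the replicate block (0.23). DDX47 and POU5F1P3 lost their calls without 1 of 2 libraries each (-0.43 to -0.71) and POU5F1B without 1 of 5 (-0.45 to -0.52). The causes were not tested.

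The replicate numbers do not pair the libraries, since same-numbered libraries had correlations of their deviations of -0.27 to 0.075. With the replicate block 5488 genes were higher and 5331 lower. Depth limits genes with few reads, such as S100A6 and NANOS3 with MIR9-2-5p.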
